A study of Mus musculus with 4 samples.

Results

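Regulators of G protein signalling (RGS proteins) were examined on oligonucleotide arrays of mouse ventricular muscle. The genes were Rgs2, Rgs3, Rgs4, Rgs5, Rgs6, Rgs7, Rgs10, Rgs12, Rgs14 and Rgs16, 10 in all, and probes were assigned to them by the gene symbol of the platform annotation. This gave 14 probes for 9 of the genes, out of 23473 gene probes on the array. No probe carried the symbol Rgs14. The gene table in use lists that symbol among older names of Rgs16, and Rgs14 was not analysed here. The 10 genes were chosen on detection and on genotype differences known from these same arrays, so the wild-type against knockout values below are a description and no p-value is given for them.

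The study compared 2 wild-type samples with 2 samples carrying a genetic deletion of Trpc6, a receptor-operated cation channel. All 4 samples were ventricle of male 129SV mice, with ages not stated, and each was hybridised in 1 colour (Cy5) to its own array. Samples carry numbers within their genotype and no animal is named in the labels, so the spread within a group may be technical. They do not state how Trpc6 was deleted, nor in which cells.

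RGS proteins bind activated G protein alpha subunits and speed up their hydrolysis of GTP, which ends signalling by the alpha and the beta-gamma subunits alike. The R4 subfamily (Rgs2, Rgs3, Rgs4, Rgs5 and Rgs16 here) holds mostly small proteins that act on Gq and Gi, with Rgs2 selective for Gq. The R7 subfamily (Rgs6 and Rgs7) forms obligate dimers with the G beta-5 subunit, and the R12 subfamily (Rgs10, Rgs12 and Rgs14) acts on Gi and Go. In the heart, Gq-coupled receptors for angiotensin, endothelin and noradrenaline open TRPC6 through phospholipase C and diacylglycerol, and Rgs2 and Rgs4 are known to restrain such receptors.

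The promoters of Rgs2, Rgs4 and Rgs5 are shown because these were the 3 members with the largest differences between the genotype means. The sequences are the 250 bases before the RefSeq start of each gene, read 5′ to 3′ on the strand of the gene, from RefSeq on GRCm38.p6. The Rgs2 window is chr1:144004150-144004399 on the minus strand, the Rgs4 window chr1:169747643-169747892 on the minus strand and the Rgs5 window chr1:169655251-169655500 on the plus strand. Capitals mark the cAMP response element half-site TGACG or its reverse CGTCA, the NFAT core GGAAA or its reverse TTTCC, and the TATA box TATAAA, searched on both strands.
Rgs2: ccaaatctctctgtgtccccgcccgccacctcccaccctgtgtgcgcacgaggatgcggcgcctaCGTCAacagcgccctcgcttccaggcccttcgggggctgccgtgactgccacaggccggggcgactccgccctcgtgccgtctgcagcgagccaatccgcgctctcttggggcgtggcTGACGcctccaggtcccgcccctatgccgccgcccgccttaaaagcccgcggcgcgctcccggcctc
Rgs4: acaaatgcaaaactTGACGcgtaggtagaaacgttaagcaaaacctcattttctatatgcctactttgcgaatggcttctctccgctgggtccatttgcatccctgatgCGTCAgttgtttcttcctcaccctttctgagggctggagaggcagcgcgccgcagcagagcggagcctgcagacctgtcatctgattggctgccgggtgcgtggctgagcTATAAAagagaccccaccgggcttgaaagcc
Rgs5: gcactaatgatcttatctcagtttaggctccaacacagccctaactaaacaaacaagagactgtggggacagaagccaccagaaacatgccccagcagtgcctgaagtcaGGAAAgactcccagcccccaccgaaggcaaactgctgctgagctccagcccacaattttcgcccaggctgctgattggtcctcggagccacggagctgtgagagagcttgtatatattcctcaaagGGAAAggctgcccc

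The Rgs2 window held 2 TGACG half-sites, with their first bases 185 and 67 bases before the start, and no GGAAA. The Rgs4 window also held 2 half-sites, 236 and 141 bases before the start, and a TATAAA 31 bases before it. The Rgs5 window held no half-site and 2 copies of GGAAA, 140 and 14 bases before the start. A TGACG half-site occurs in 17.8% of the 32851 mouse promoters of this table, GGAAA in 55.6% and TATAAA in 12.4%. RefSeq promoters were found for all measured members, 11 windows in all. Besides Rgs2 and Rgs4, only Rgs12 held a half-site, and besides Rgs5, only Rgs3 and Rgs6 held GGAAA. The full palindrome TGACGTCA, present in 1.55% of promoters, was in none of the 11. The Rgs2 window was 72.4% G and C, against 53.6% for both Rgs4 and Rgs5 and a median of 52.4% over all promoters. A match of letters is not a bound site.

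Rgs4 and Rgs5 are direct neighbours on chromosome 1 among protein-coding genes, and lie on opposite strands. Chromosome 1 also holds Rgs2, whose neighbour is Rgs13, Rgs16, whose neighbour is Rgs8, and Rgs7. The other measured members lie singly on chromosomes 4, 5, 7 and 12.

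Trpc6 itself did not check the labels. Its probe read 80.5 and 89.2 units in wild type, compared with 84.1 and 82.6 units in the knockout, below the detection limit on each array. The detection limit was the 95th percentile of the blank and negative control spots and lay at 80.8 and 91.5 units for wild type, 85.5 and 83.3 units for knockout. Between 76.3% and 83.2% of gene probes lay above it. All 10 ventricular cardiomyocyte markers were above background on every array, and so were all 10 endothelial and all 10 fibroblast markers. With 4 arrays, precision is low throughout.

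Many RGS probes were read close to this limit. Of the 14 member probes, 13 were above it on all 4 arrays and the remaining one, of Rgs16, on 3. In 7 of the 14 the spot median was under 1.2 times the limit on every array, with a highest ratio of 1.16. These were both probes of Rgs6, both of Rgs7, 1 of 4 for Rgs3, and those of Rgs12 and Rgs16. Just inside the limit, Rgs16 read 84.8 units on the first wild-type array and 87.2 and 85.2 units on the knockout arrays. Just outside, it read 90.1 units on the second wild-type array. Rgs2 was the farthest from the limit, at 7.28 to 8.73 times its array's value, followed by Rgs5 at 3.93 to 5.44 times. Such ratios describe detection and do not rank transcripts, because probes differ in how strongly they bind.

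**Figure D1:**
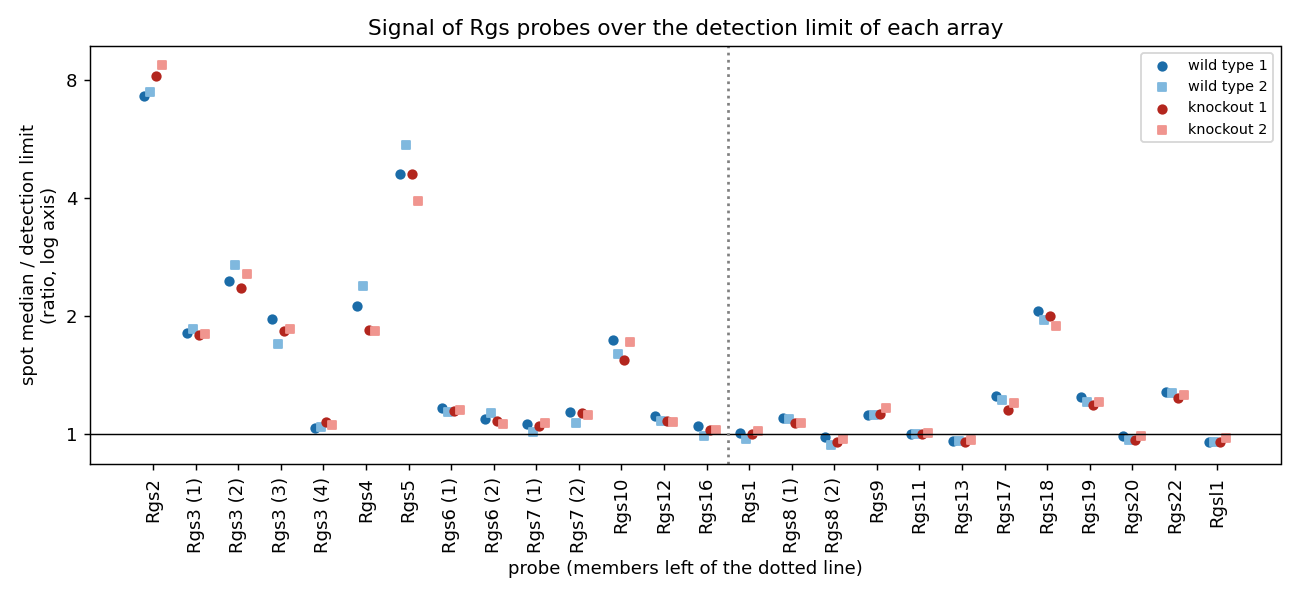
Spot median divided by the detection limit of its array (log axis, ratio) for every probe of the Rgs series, 1 point per array, with the 14 member probes left of the dotted line and the 12 others right of it. Rgs2 lies above 7 on every array, while 7 member probes lie under 1.2, next to the line at 1 that marks the limit.

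The array also held 11 other genes of the Rgs series, with 12 probes, and several of them were as well detected as members. Rgs18, an R4 protein of platelets and other blood cells, read 166, 178, 171 and 157 units on the 2 wild-type and then the 2 knockout arrays, above the limit on all 4. Rgs8, Rgs9, Rgs17, Rgs19 and Rgs22 were also above it on all 4 arrays with at least 1 probe. Rgs1 and Rgs11 were above it on some arrays, and Rgs13, Rgs20 and Rgsl1 on none. The 10 genes are therefore not the full set of RGS genes detected in this tissue. Values of Rgs18 differed by 0.00 on the log2 scale between genotypes, with a limma standard error of 0.07.

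Values below are scanner spot medians in units, then log2 intensities after background correction with normexp and quantile normalization. Spot medians are not scaled between arrays. The median gene probe read 106 units on the second wild-type array and 95.5 to 97.7 units on the others. A difference is the mean log2 value in the knockout less that in wild type, with its standard error from a limma fit over all 15955 genes tested. A gene with several probes was represented by the brightest. Of the 9 members, 5 were higher and 4 lower in the knockout, with a median difference of 0.01, against 0.00 over all genes tested. Over all genes tested, 51.1% were higher in the knockout. The median size of the difference, regardless of sign, was 0.025 for the members and 0.043 for all genes. These medians were not matched for signal, and the normexp offset narrows the differences of dim probes, of which the members had many. The 2 groups did not overlap for 1 member with higher values in the knockout (Rgs2) and for 1 with lower values (Rgs4). Over all genes tested, 19.4% did not overlap with higher and 17.4% with lower knockout values. Of all genes, 0 (0%) had a limma adjusted p under 0.05, so no RGS gene did. At an unadjusted p under 0.05, 3.67% of the genes were higher and 3.08% lower.

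Rgs2, the member most selective for Gq, was read farthest above the detection limit, though with a high local background. Its spot medians were 588 and 681 units for wild type against 698 and 727 units for knockout. Both knockout samples were thus higher than both wild-type samples, by a narrow margin in these unscaled units. The log2 values were 9.16 and 9.24 in wild-type ventricle, and 9.41 and 9.50 in knockout ventricle, or 9.20 ± 0.06 and 9.46 ± 0.07 (mean ± SD, n = 2 arrays each). The difference was 0.26 ± 0.06 (standard error), higher in the knockout and larger than the gap between arrays of 1 group. A difference larger than the gap in either group was found for 23.9% of all genes tested. The authors' processed table gave 500.6 and 478 units for wild type against 585 and 661 units for knockout, a ratio of mean values of 1.27. Of all genes tested, 2.78% differed by at least as much in either direction. That share is no test, because Rgs2 was chosen with genotype differences of these arrays known.

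The local background beside the Rgs2 spot was uneven between arrays. It read 438 and 462 units in wild type, 224 units on the first knockout array and 469 units on the second. The first knockout array thus stood apart, with the lowest background of the 4. That array was also the lowest beside Rgs18, at 84.4 units against 128 to 135 units, but not beside Rgs4 or Rgs5. When the local background was subtracted, the Rgs2 spot kept 149.9 and 219 units in wild-type tissue against 474 and 259 units in knockout tissue. The log2 difference was then 0.84 in place of 0.26. Without local background subtraction, leaving out 1 array at a time gave 0.21 to 0.30. The subtracted difference was not recomputed with arrays left out.

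Rgs4, which acts on Gq and Gi and in mice restrains parasympathetic slowing of the heart, lay the other way. Its spot medians were 171 and 218 units in wild type, compared with 158 and 153 units in the knockout. Both knockout samples were below both wild-type samples, and the second wild-type array was well above the first. The log2 values were 7.18 and 7.44 in wild-type ventricle, and 7.06 and 6.98 in knockout ventricle, or 7.31 ± 0.18 and 7.02 ± 0.06 (n = 2 arrays each). The difference was -0.29 ± 0.10, 1.22-fold lower in the knockout. In the authors' table the values were 91.3 and 105 units for wild type against 71.0 and 73.2 units for knockout, a ratio of 0.733. When the second wild-type array was left out, the log2 difference was -0.16, and it was -0.42 when the first was left out. After local background subtraction it was -0.23 and the groups overlapped. A difference at least as large as -0.29, in either direction, was seen in 1.85% of the genes tested. For a member chosen in this way that share is again no test.

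Rgs5, a marker of pericytes and vascular smooth muscle, was read at 372 and 498 units in wild-type tissue against 393 and 328 units in knockout tissue. The second wild-type array was again the highest, the second knockout array the lowest, and the groups overlapped. The log2 values were 8.45 and 8.77 in wild type, compared with 8.55 and 8.28 in the knockout, or 8.61 ± 0.23 and 8.41 ± 0.19 (n = 2 arrays each). The difference of -0.20 ± 0.15 was smaller than the gap of 0.33 between the 2 wild-type arrays. Without the second wild-type array it was -0.03, without the second knockout array -0.06. With the first array of either genotype left out it was larger, at -0.36 (wild type) or -0.33 (knockout). After local background subtraction it was -0.34 without overlap, and the authors' table gave a ratio of 0.882.

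Rgs4 and Rgs5 shared their highest array, the second wild-type one, and their lowest, the second knockout one. With 4 arrays no correlation was computed. In whole tissue, fewer cells of a type and less RNA per cell cannot be told apart. The other pericyte markers went both ways, with 5 of 10 higher and 5 lower in the knockout, and all 10 above background on every array. This split was 8 and 2 without the first wild-type array and 4 and 6 without the second. Their summed normalized intensity was 4123 and 3994 units in wild-type ventricle, and 4114 and 5289 units in knockout ventricle. Of 10 smooth muscle markers, all above background, 3 were higher and 7 lower. With 75th percentile scaling or local background subtracted 7 were higher and 3 lower, and without the first knockout array 6 and 4. The median difference of all genes was 0.039 with 75th percentile scaling, against 0.0017 with quantile normalization. That shift bears on the splits of the other lists under this scaling too. The smooth muscle markers had sums of 3358 to 3426 units for wild type against 3540 to 3773 units for knockout. Their part in the Rgs5 values was not tested.

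**Figure D2:**
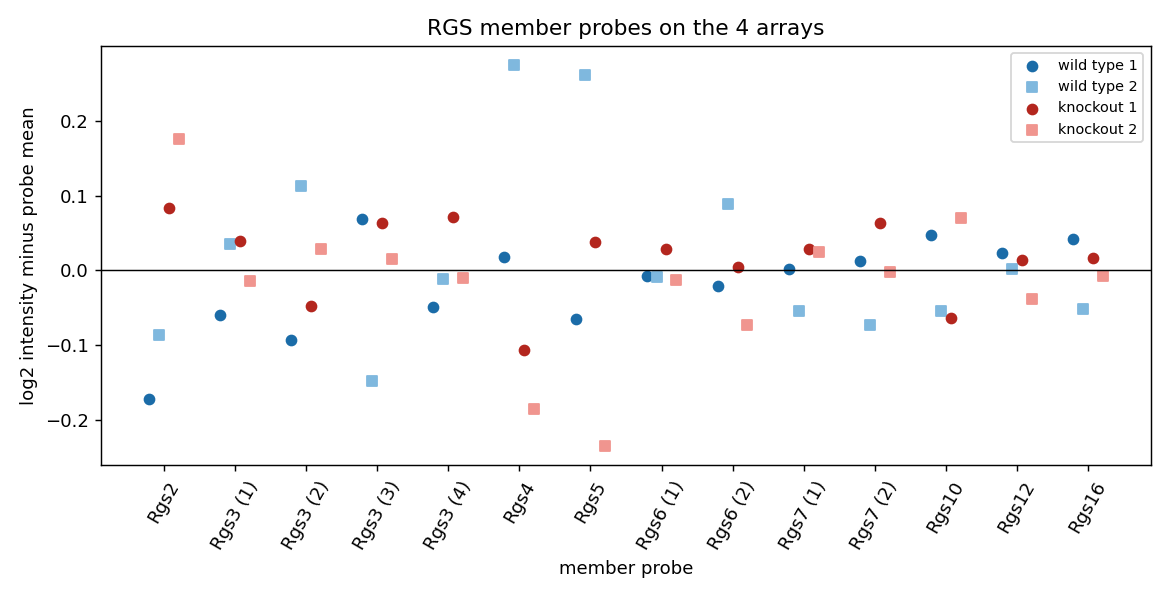
Normalized log2 intensity of each member probe on each array, minus the mean of that probe over the 4 arrays; numbers in brackets distinguish probes of 1 gene in the order of their identifiers. The knockout points of Rgs2 lie above and those of Rgs4 below both wild-type points, and for Rgs5 the second wild-type and second knockout arrays mark the 2 ends of an overlapping range.

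**Figure D3:**
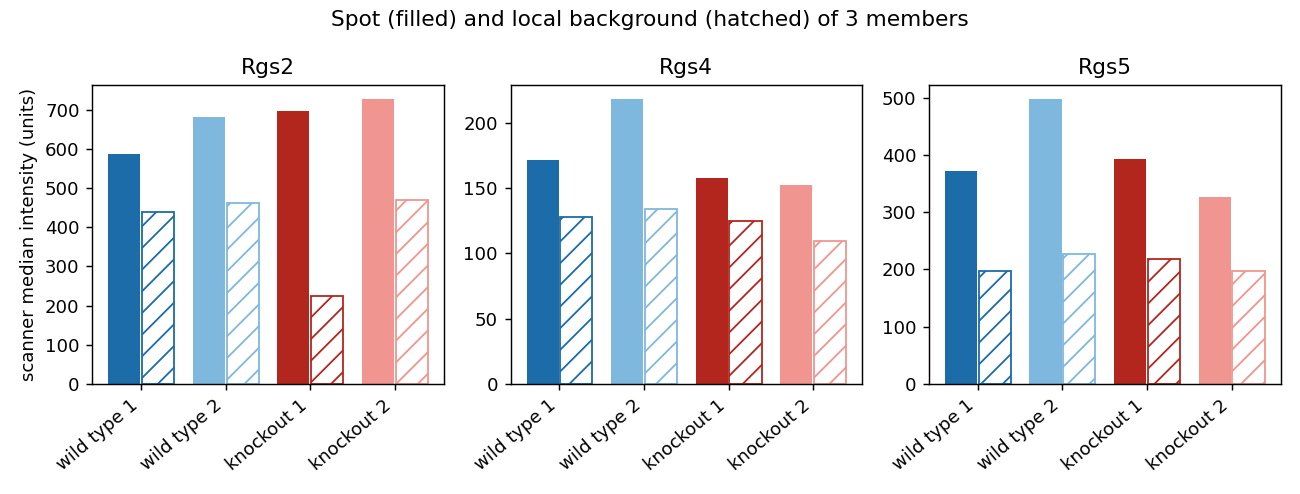
Scanner medians in units of the spot (filled bars) and of its local background (hatched bars) for Rgs2, Rgs4 and Rgs5 on the 4 arrays. The Rgs2 background is 224 units on the first knockout array and 438 to 469 units on the other 3, while the backgrounds of Rgs4 and Rgs5 lie between 109 and 134 and between 198 and 226 units.

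Rgs3, an R4 protein with long forms that carry a PDZ domain, had 4 probes. The brightest, M300011527, read 198 and 246 units in wild-type tissue against 201 and 212 units in knockout tissue, with overlapping groups. Its log2 difference was -0.02 ± 0.08. The probes M300011526, M400006967 and M400011863 differed by 0.02, 0.08 and 0.06, so that the 4 probes did not share a sign. M400011863 lay next to the limit, at 83.8 and 94.9 units in wild type, compared with 91.9 and 87.7 units in the knockout. After normalization its groups did not overlap, at 5.87 and 5.90 against 5.99 and 5.90, the nearest values being almost equal. The annotation gives M300011526, M400006967 and M400011863 different transcripts, and M300011527 none. The mean of the 4 probes differed by 0.04 ± 0.04. With 1 array left out at a time, the difference of the brightest probe ranged from -0.12 to 0.08.

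Rgs16, an R4 protein acting on Gi and Gq, was barely detected. The log2 values were 5.89 and 5.80 in wild-type ventricle, and 5.86 and 5.84 in knockout ventricle, with overlap and a difference of 0.01 ± 0.05. The authors' table gave 6.2 units on the first wild-type array, none on the second, and 4.1 and 4.0 units in the knockout. At this signal no difference could be read.

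The R7 proteins Rgs6 and Rgs7 were near the limit with all their probes. Rgs6, which in mice limits muscarinic slowing of the heart, was read with its brighter probe at 94.0 and 104 units for wild type against 97.9 and 95.6 units for knockout. Its log2 difference was 0.02 ± 0.04, and the other probe, M400005611, gave -0.07. In the authors' table that second probe read 9.4 and 12.5 units in wild-type tissue against 8.7 and 6.9 units in knockout tissue, without overlap, while the brighter probe had a ratio of 1.02. The 2 Rgs6 probes thus differed in sign, with overlapping groups after normalization for both.

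Rgs7, best known from neurons, was read with its brighter probe at 91.7 and 97.6 units in wild type, compared with 96.5 and 93.0 units in the knockout. The log2 values were 6.05 and 5.96 in wild-type ventricle, and 6.10 and 6.03 in knockout ventricle, and overlapped. The difference was 0.06 ± 0.05, and 0.05 with the other probe, M300005158. That probe read 5.90 and 5.85 in wild type, below 5.93 and 5.93 in the knockout, and the mean of both probes, with a difference of 0.06, also did not overlap. The authors' values were 13 and 8.0 units for wild type against 13 and 12 units for knockout, a ratio of 1.19, with the second wild-type array low. Of 8 neuronal and glial markers with a probe, 7 were kept, 2 higher and 5 lower (4 and 3 with 75th percentile scaling or local background subtracted, 5 and 2 without the second knockout array), with sums of 633 to 653 units in wild-type tissue against 629 to 651 units in knockout tissue.

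The partners of the R7 proteins did not differ beyond their spread in the main setting. Gnb5, the G beta-5 subunit, was at 7.50 ± 0.13 in wild type, compared with 7.50 ± 0.11 in the knockout. After local background subtraction the Gnb5 spot kept 58.8 and 72.2 units in wild type against 119 and 77.4 units in the knockout. Its log2 difference was then 0.40, with a limma adjusted p of 0.532. Rgs7bp, the membrane anchor of R7 dimers, was at 6.62 ± 0.08 and 6.58 ± 0.09. Kcnj3 and Kcnj5, the subunits of the muscarinic potassium channel that RGS proteins help to close, had differences of 0.03 ± 0.05 and -0.05 ± 0.05. Kcnj5 was near the detection limit, at 1.07 to 1.14 times its value, where the normexp offset narrows differences. In the authors' table the Kcnj5 difference was -0.31. In the main setting the limma adjusted p over all genes was between 0.900 and 0.999 for these 4 genes. That does not show that they were equal.

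Atrial and conduction tissue is a known site of Rgs4 and Rgs6. Of 8 atrial markers with a probe, 5 were higher and 3 lower, with sums of 3853 to 3879 units in wild-type ventricle, and 4670 and 6810 units in knockout ventricle. The median atrial difference was 0.03, and the sum was carried mainly by Nppa, the atrial natriuretic peptide, named after its values were seen. Nppa was at log2 11.68 and 11.64 for wild type against 11.99 and 12.61 for knockout, with a limma adjusted p of 0.727. Of 9 conduction markers with a probe, 6 were kept, 4 higher and 2 lower, with sums of 464 to 478 and 470 to 479 units. The conduction split was 2 and 4 after local background subtraction and 3 and 3 without the second knockout array. The conduction markers Hcn4 and Isl1 were not above background on any array. Their part in the Rgs4 and Rgs6 values was not tested.

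Among the R12 proteins, Rgs10, a small Gi regulator of immune cells, was above the limit on all 4 arrays at 1.54 to 1.74 times its value. It read 140.2 and 146 units for wild type against 132 and 143 units for knockout. The log2 values were 6.84 and 6.74 in wild-type tissue against 6.73 and 6.86 in knockout tissue, so that each group held 1 high and 1 low array. The difference was 0.01 ± 0.07, and the authors' ratio was 1.02. It was -0.17 after local background subtraction, where the local values were 94.1 and 88.6 units in wild type, compared with 89.9 and 114 units in the knockout.

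Of 10 macrophage markers, all above background, 8 were higher and 2 lower in the knockout, with sums of 2368 and 2056 units in wild-type ventricle, and 2353 and 2732 units in knockout ventricle. The macrophage split was 5 and 5 without the second knockout array, and 6 and 4 after local background subtraction or without the second wild-type array. Of 8 kept lymphocyte markers 4 were higher and 4 lower, with sums of 491 to 501 units over all arrays. The lymphocyte split was 6 and 2 with 75th percentile scaling, and 2 and 6 after local background subtraction or without the second knockout array. Of 7 kept platelet markers 2 were higher and 5 lower, or 4 and 3 with 75th percentile scaling, with sums of 604 to 644 units. Cd3g and Clec1b were not above background on any array. The 6 kept erythroid markers summed to 1328 units on the first wild-type array and 3176 to 3906 units on the other 3, with 5 of 6 higher in the knockout. Slc4a1 was not above background. The part of these cells in the values of Rgs10 and Rgs18 was not tested.

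Rgs12, a large protein with PDZ and GoLoco domains, read 89.8 and 98.7 units for wild type against 92.2 and 89.3 units for knockout, at 1.07 to 1.11 times the limit. Its log2 difference was -0.02 ± 0.04, with overlap. The authors' values were 11.1 and 8.8 units in wild-type tissue against 8.9 and 8.2 units in knockout tissue, a ratio of 0.859. By construction, the normexp offset of 50 units narrows the differences of dim probes.

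The G proteins and effectors on which RGS proteins act were listed by role. Of 91 listed genes 84 had a probe and 70 were tested, 34 of them higher and 36 lower in the knockout, with a median difference of 0.00. None had an adjusted p under 0.05 by limma. At an unadjusted p under 0.05, 3 were higher and 1 lower, against 3.67% and 3.08% of all genes. These 4 are named after their values were seen. Gna13, a G protein alpha subunit, differed by 0.20 ± 0.05, Gng12, a gamma subunit, by 0.12 ± 0.04, S1pr1, a sphingosine phosphate receptor of endothelium, by 0.42 ± 0.11, and Grk5, a receptor kinase, by -0.26 ± 0.05. Their limma adjusted p was between 0.727 and 0.739.

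The Gq alpha subunits, the targets of Rgs2, were kept in 4 of 4 cases, 1 higher and 3 lower. The split was 3 and 1 without the first wild-type array, and all 4 were lower after local background subtraction. Their summed normalized intensity was 3754 units on the first wild-type array and 1974 to 2349 units on the other 3. Gnaq and Gna11 made up only a small part of these sums, and the other listed subunits the rest. Gnaq was at 6.27 ± 0.02 in wild type, compared with 6.24 ± 0.0012 in the knockout, a difference of -0.03 ± 0.04 with a limma adjusted p of 0.912. Gna11 was at 7.90 and 7.52 in wild-type ventricle, and 8.02 and 7.83 in knockout ventricle, a difference of 0.21 ± 0.15 with overlap. Its spots stood little above their surroundings, at 265 and 229 units in wild type beside local backgrounds of 262 and 197 units. In the knockout they read 281 and 250 units beside 268 and 254 units, so the second lay below its surroundings. Of 5 kept Gi and Go subunits 2 were higher and 3 lower, reversed to 3 and 2 with median or 75th percentile scaling. Gnai2 was at 9.12 and 8.56 for wild type against 8.99 and 8.89 for knockout, its 2 wild-type arrays lying on either side of both knockout arrays. Gnai3 differed by -0.09 ± 0.04 and Gnao1 by 0.06 ± 0.05, both without overlap. For Gnao1 the nearest values were 6.260 in wild type and 6.263 in the knockout, and its spot medians and authors' values overlapped. Gnas, the Gs subunit on which most RGS proteins do not act, differed by -0.0016, with a standard error of 0.07. It read 1.19 to 1.25 times the detection limit. The limma adjusted p was between 0.756 and 0.998 for Gna11, Gnai2, Gnai3, Gnao1 and Gnas.

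The remaining groups were divided as follows. Both Gs subunits were lower, but 1 of 2 was higher with 75th percentile scaling and both after local background subtraction, and the G12 and G13 subunits went 1 each way. All 4 tested G beta subunits were higher with quantile normalization, 75th percentile scaling and in the authors' table, 3 of 4 with median scaling, and 2 of 4 after local background subtraction. Of 10 G gamma subunits 6 were higher, 8 with 75th percentile or median scaling and 4 in the authors' table. Of 16 further regulators, among them receptor kinases and axins, 5 were higher and 11 lower, a split that became 9 and 7 with 75th percentile scaling and with local background subtracted. Of 11 GIRK channel and adenylyl cyclase genes 5 were higher, and 8 with 75th percentile scaling. Of 11 Gi-coupled and muscarinic receptors 7 were higher, 9 with that scaling and 4 after local background subtraction. Of 5 R7 anchors 3 were higher, 4 with that scaling and 2 with median scaling. Single arrays also moved these splits. Without the first wild-type array 4 of 10 G gamma and 8 of 11 channel and cyclase genes were higher. Without the second wild-type array both Gs subunits and 4 of 11 receptors were higher, and without the second knockout array 8 of 16 further regulators.

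**Figure D4:**
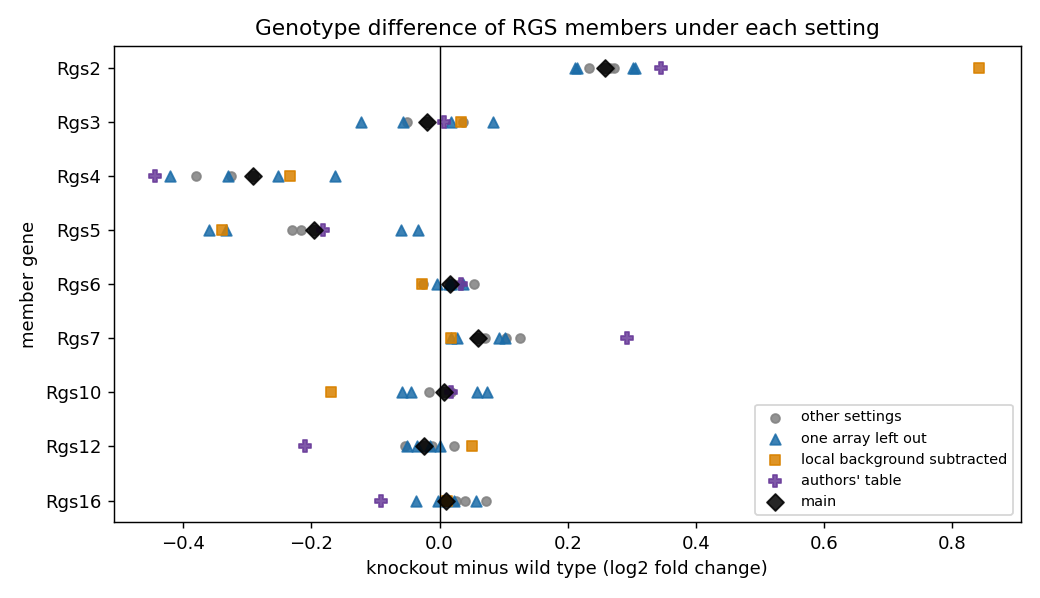
Log2 fold change, knockout minus wild type, of the 9 measured members under the main and all alternative settings, 1 point per setting. Rgs2 lies right of 0 and Rgs4 left of it throughout, with Rgs2 at 0.84 when the local background is subtracted, while Rgs3, Rgs6, Rgs10, Rgs12 and Rgs16 have points on both sides.

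Filters on low signal and the replicate block leave a difference as it is, as does averaging probes for a gene with 1 probe. Of the alternatives that could move the value, the sign turned under 5 of 10 for Rgs3, 3 of 10 for Rgs6, 4 of 9 for Rgs10, and 3 of 9 each for Rgs12 and Rgs16. It turned under none of 9 for Rgs5 and none of 10 for Rgs7. For Rgs16 the turn in the authors' table involved an empty wild-type cell that was set to 3 units. For Rgs2 and Rgs4 the absence of overlap fixes the sign when 1 array is left out, which leaves 5 alternatives, none of which turned it. For Rgs7 the difference ranged from 0.02 to 0.29, the highest in the authors' table.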

How the data were processed

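The authors deposited, for each array, scanner intensity values, linear and not yet normalized. According to the file headers these are the median pixel intensity at 635 nm of each spot and of its local background, read at 3 gains joined by a step that the sources used here do not give. They also deposited a table of processed intensity. Set against the spots it followed a straight line on each array, with a constant of 78.4 to 87.7 units subtracted and the rest scaled by 0.807 to 1.02 to a median of 25 units. It held 3714 to 4955 empty cells per array, for a reason not stated.

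Spots were corrected with normexp (limma 3.58.1, R 4.3.3, offset 50, no local background, which followed the spots), controls were left out, and log2 values were quantile normalized. Probes above the 95th percentile of blank and negative control spots on at least 2 arrays were kept, 16999 with a symbol, and all 14 RGS probes were among them. Symbols came from the platform annotation (20690 probes with 1, none with several, 2783 unnamed). The genotypes were compared with lmFit and eBayes across all genes, two-sided, with Benjamini-Hochberg adjustment at 0.05. Residual degrees of freedom were 2. The fit was tested on simulated data with planted changes of 2 log2 units, far larger than the member differences, so that test does not cover differences of their size. Genes were named by membership or role. Alternatives were other offsets, scalings, filters and probe rules, local background subtraction, the processed table, a replicate block and leaving out each array. The members and lists were chosen with earlier results of these data known.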

Additional observations from a re-analysis of the deposited data

How the results depend on the processing

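With 2 arrays per group and many RGS probes near the detection limit, small differences could not be resolved. The number of genes at an unadjusted p under 0.05 was 1076, and 593 in the authors' table, where empty cells and values under 3 units were set to 3. It ranged from 444 to 2344 when 1 array was left out, the ends being without the second knockout and without the first wild-type array. The number with an adjusted p under 0.05 was 0 under each alternative except without the second wild-type array, where 1 gene (Hba-a2, named after its values were seen) passed, a range of 0 to 1. With 1 array left out, 1 group has a single array, assumed to vary like the other group, whose 2 arrays alone give the spread. The split of genes at an unadjusted p under 0.05 was 585 higher and 491 lower, 397 and 676 with median scaling, 718 and 415 with 75th percentile scaling and 173 and 420 in the authors' table. With the replicate block there were 1148 genes at an unadjusted p under 0.05 and none adjusted. Same-numbered arrays deviated together with r = 0.0967 across genes, and the labels do not pair them. RGS probes above background numbered 13 to 14 per array and 12 to 14 with the 99th percentile of control spots, and 14 on every array against the local background.

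None of the 10 partners named by role passed the adjusted threshold under any alternative, and these signs turned, for causes not tested. After local background subtraction the log2 differences were -0.13 for Gna11, -0.54 for Gnai2, 0.22 for Gnai3, -0.084 for Gnao1, 0.048 for Gnas, -0.094 for Kcnj3 and 0.026 for Kcnj5. Gnb5 was -0.030 with median scaling, and Gnas 0.026 with 75th percentile scaling and 0.020 with the mean of probes. When 1 array was left out, Gnai2 ranged from -0.18 to 0.39, Gnas from -0.062 to 0.059, Gnb5 from -0.093 to 0.097, Kcnj3 from -0.0072 to 0.070 and Rgs7bp from -0.11 to 0.026.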
